A study of Mus musculus with 8 samples.

Results

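This account follows 9 genes of thymic epithelial identity, Foxn1, Trp63, Pax1, Pax9, Six4, Eya1, Hoxa3, Tbx1 and Pou2f3, which were looked up by symbol among the 24052 genes listed in each library. Of the 9, 7 passed the filter on low counts among 11672 genes tested. The other 2, Tbx1 and Pou2f3, had 0 counts everywhere. RNA-Seq had been carried out on mTEC 3.10, a mouse medullary thymic epithelial cell line of C57BL/6 origin at passage 2, either with wild-type Aire (WT) or as E6, a single CRISPR-Cas9 clone of that line. The genotype of E6 is labelled Aire +/-, whereas the study describes indels in exon 3 on both alleles. Cells were sequenced before adhesion, that is without co-culture, or after adhesion, that is after 12 h with C57BL/6 thymocytes at 50 thymocytes per mTEC followed by washing. Each of the 4 conditions had 2 libraries, 8 in all. E6 is 1 clone, so the mutation and any other property of that clone cannot be told apart. By the labels, 3 libraries came from cells cultured for 24 h (WT after adhesion replicate 2, E6 before replicate 1 and E6 after replicate 1) and the others for 12 h.

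The thymus arises from endoderm of the third pharyngeal pouch. Hoxa3, Pax1, Pax9, Eya1, Six4 and Tbx1 act in that pouch before or while the thymic rudiment forms, and Foxn1 then drives differentiation of the rudiment into epithelium able to support thymocytes, so that mice without Foxn1 function have no proper thymus. Eya proteins carry no DNA-binding domain of their own and act as coactivators on homeodomain proteins such as Six4. Trp63 encodes p63, which maintains basal cells of stratified epithelia and thymic epithelial progenitors, and Pou2f3 specifies tuft cells, a minor medullary type. Aire itself releases expression of tissue-restricted antigens in mature mTECs.

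Sequences at the start of transcription are shown for 3 members that stand for the levels found below, Pax1 with the highest level, Foxn1 as the defining regulator, and Tbx1 as a gene with no read. The letters run from 250 bases before to 50 bases after the start and were taken from RefSeq on GRCm38.p6, in which 6 of the 9 members had a window. Capitals mark GACGC, the core bound by Foxn1, and CCAAT, the CCAAT box, each searched on both strands. Foxn1 lies on the minus strand at chr11:78386559-78386858, Pax1 on the plus strand at chr2:147364744-147365043, and this Tbx1 window on the minus strand at chr16:18588850-18589149.
Foxn1: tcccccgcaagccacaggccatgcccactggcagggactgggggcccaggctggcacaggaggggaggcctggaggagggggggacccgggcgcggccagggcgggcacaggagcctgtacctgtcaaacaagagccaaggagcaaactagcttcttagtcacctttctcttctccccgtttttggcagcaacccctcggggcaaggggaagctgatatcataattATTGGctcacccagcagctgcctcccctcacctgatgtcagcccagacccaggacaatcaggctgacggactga
Pax1: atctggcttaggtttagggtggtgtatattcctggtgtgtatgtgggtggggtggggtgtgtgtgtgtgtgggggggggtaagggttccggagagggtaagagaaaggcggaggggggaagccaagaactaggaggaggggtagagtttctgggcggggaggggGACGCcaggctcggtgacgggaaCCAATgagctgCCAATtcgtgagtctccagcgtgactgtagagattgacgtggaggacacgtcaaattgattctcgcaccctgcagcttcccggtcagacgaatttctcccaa
Tbx1: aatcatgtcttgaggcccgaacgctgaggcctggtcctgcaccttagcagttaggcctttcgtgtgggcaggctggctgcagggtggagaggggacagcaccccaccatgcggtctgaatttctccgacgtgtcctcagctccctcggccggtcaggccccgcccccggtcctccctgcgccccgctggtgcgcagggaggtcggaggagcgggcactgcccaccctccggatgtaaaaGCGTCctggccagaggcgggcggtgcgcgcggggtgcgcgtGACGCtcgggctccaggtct
Of 32851 such windows, 27.2% held the GACGC core and 37.4% the CCAAT box. The Foxn1 window held a CCAAT box 24 bases before the start, at position -24, and no GACGC. The Pax1 window held GACGC at -86 and CCAAT at -63 and -52. The Tbx1 window held GACGC at -11 and 31 and had the highest CpG count of the 3, with 26 against 13 for Pax1 and 8 for Foxn1, where the median over all windows was 7. Another Tbx1 window, at chr16:18590622-18590921, held neither motif and had a CpG count of 16. CpG counts above that median were thus found both for the member with the most reads per length and for a member with none.

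Counts on genes came to between 13506610 and 20145154 per library. Below, CPM is the read count scaled for library size with TMM factors, and RPKM is that value per kb of exonic length. Epithelial markers were abundant in every library (Epcam at 7366 to 11327 counts and Krt8 at 19420 to 42179), but several defining genes of mature mTECs and cTECs were not, since Aire had 0 counts in 6 libraries and 3 counts in WT after adhesion replicate 2 and in E6 after adhesion replicate 2, and Psmb11 and Ccl21a had 0 in all 8. Aire counts therefore check no label. One library, WT after adhesion replicate 1, stood apart, with 66.7% of its alignments on genes against 75.7% to 78.8% in the others, and a slope of log2 CPM on GC content of -0.46 per 10% GC against -0.02 to 0.13. Summed CPM of the 15 thymocyte markers listed, of 25 chosen, was 0.442 to 0.668 in WT before adhesion, 12.5 to 17.8 in WT after, 0.268 to 0.902 in E6 before and 87.5 to 109 in E6 after. Their part in the results below was not tested. In bulk libraries, fewer cells of a type and less RNA per cell cannot be told apart.

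The 7 expressed members spanned a 68.7-fold range of mean level per length. Pax1 was the highest by far, with a mean of 34.8 ± 5.31 RPKM (SD, n = 8 libraries), above 87.3% of tested genes of known length. Pax9, its close relative, came next at 7.63 ± 0.641 RPKM. Foxn1 at 4.0 ± 0.437 RPKM and Eya1 at 3.84 ± 1.09 RPKM were not separated, since their ranges overlapped, although Foxn1 was the higher within 7 of 8 libraries, all but WT after adhesion replicate 1. Six4 followed at 2.83 ± 0.749 RPKM and Hoxa3 at 1.54 ± 0.340 RPKM. Trp63 was the lowest at 0.506 ± 0.0912 RPKM, above only 10.1% of tested genes. Pax1 exceeded Pax9, Pax9 exceeded Foxn1, and Hoxa3 exceeded Trp63 without overlap over the 8 libraries. Between Eya1 and Six4 the ranges overlapped and the order held in 6 of 8 libraries, and between Six4 and Hoxa3 they overlapped although Six4 was higher within all 8.

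**Figure D1:**
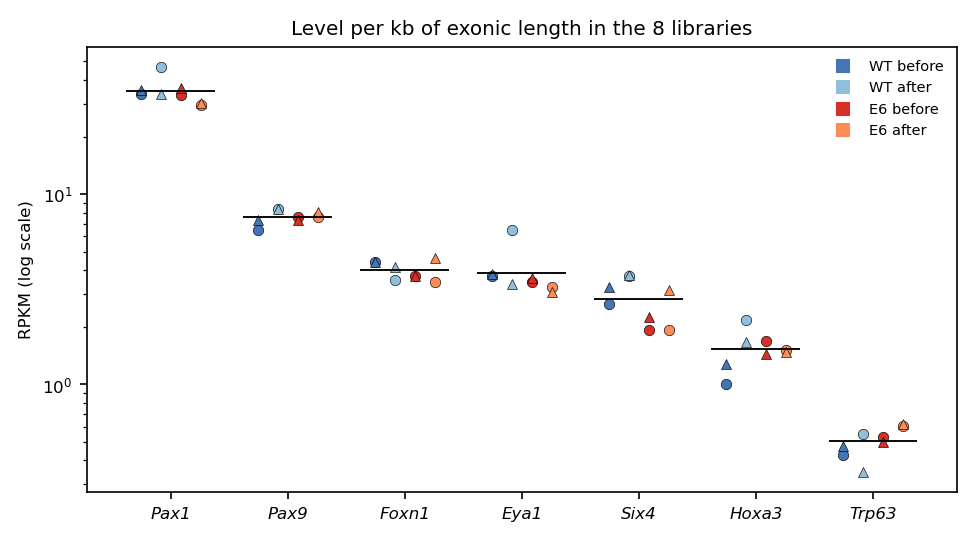
RPKM of the 7 members with counts in each library (log axis, circles for replicate 1, triangles for replicate 2, bars for the mean of 8 libraries). Pax1 lies near 34.8 RPKM and Trp63 near 0.506, while Foxn1, Eya1 and Six4 share part of their ranges.

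Spread over the 8 libraries was small for some members and not for others. The highest library exceeded the lowest by 1.30-fold for Pax9, 1.33-fold for Foxn1, 1.59-fold for Pax1, 1.79-fold for Trp63, 1.96-fold for Six4, 2.12-fold for Eya1 and 2.16-fold for Hoxa3. The same ratio had a median of 1.62 over 9701 tested genes at or above the level of Trp63, so that 3 members lay below it and 4 above. The largest ratio between replicates of a condition was that of Eya1 in WT after adhesion, 1.92-fold.

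The first question was whether the mutant clone differed from WT in these factors. None of the 7 tested members was DE (FDR under 0.05 and FC of at least 1.5) between E6 and WT averaged over both conditions, where 11.3% of all tested genes were. Before adhesion 0 of 7 were DE against 5.01% of genes, and after adhesion 0 of 7 against 8.91%. At an unadjusted p under 0.05, the edgeR fit gave 1 member against 35.3% of genes averaged, 0 against 21.6% before and 2 against 29.7% after adhesion, and DESeq2 called 0 members in each comparison. Their median log2 FC averaged over conditions was -0.09, against -0.01 over all tested genes. The plot of log2 FC by comparison shows the sizes that the replicates leave possible.

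Foxn1 (ENSMUSG00000002057, chr11:78357577-78386558, minus strand) had 232 and 191 counts in WT before adhesion, 161 and 277 in WT after, 173 and 222 in E6 before and 186 and 248 in E6 after. As CPM these were 14.1 and 14.1, 11.4 and 13.4, 12.0 and 11.9, and 11.1 and 14.8. The E6 libraries lay below WT before adhesion and overlapped WT after it. The log2 FC of E6 against WT was -0.24 (SE 0.18, FDR 0.526) before and 0.06 (SE 0.18, FDR 0.848) after adhesion. Averaged, it was -0.09 (SE 0.13, FDR 0.67), with a 95% interval that leaves room for a change of at most 1.31-fold.

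Pax1 (chr2:147361925-147393295, plus strand), a paired-box factor of pouch endoderm, had 2481 and 2157 counts in WT before, 2946 and 3140 in WT after, 2145 and 3049 in E6 before and 2201 and 2265 in E6 after adhesion. In CPM, WT after adhesion split into 209 and 152, while the other 6 libraries lay between 132 and 163. The averaged log2 FC was -0.21 (SE 0.11, FDR 0.228). After adhesion both E6 libraries (132 and 135 CPM) lay below both WT libraries, and the log2 FC was -0.43 (SE 0.16, FDR 0.124). It became -0.16 (FDR 0.094) without WT after adhesion replicate 1 and -0.62 (FDR 1.62e-07) without replicate 2, fits in which 1857 and 4500 genes were DE against 1040 with all libraries. The averaged value became -0.07 (FDR 0.222) and -0.30 (FDR 8.64e-06). An antisense gene over Pax1, AI646519, had 2 to 17 counts.

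Pax9 (chr12:56691767-56712822, plus strand), which also acts in the pouches, was the most even member. Its CPM was 32.7 and 36.9 in WT before, 42.5 and 42.2 in WT after, 38.6 and 37.0 in E6 before and 38.2 and 40.7 in E6 after adhesion. Averaged over conditions, E6 and WT had 38.6 CPM each, with a log2 FC of 0.01 (SE 0.08, FDR 0.965) and a 95% interval of -0.19 to 0.20.

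Six4 (chr12:73099609-73113456, minus strand), a homeodomain factor of the Eya pathway, had the largest averaged difference of the members with all 8 libraries, though not without either WT library after adhesion or E6 after adhesion replicate 1. It had 472 and 478 counts in WT before, 570 and 844 in WT after, 301 and 460 in E6 before and 350 and 571 in E6 after adhesion. In CPM, WT gave 28.7 and 35.2 before and 40.4 and 40.8 after, and E6 gave 20.9 and 24.6 before and 21.0 and 34.1 after. Within each condition both E6 libraries lay below both WT libraries, but E6 after adhesion replicate 2 reached into the WT range before adhesion. The averaged log2 FC was -0.52 (SE 0.17, FDR 0.0631), a 95% interval of -0.91 to -0.14. The FDR was 0.0337 by DESeq2, 0.0358 with the replicate number as a block, and 0.000745 and 0.000772 without WT after adhesion replicate 1 and replicate 2, all with a change below the fold limit. It was 0.0866 with a GC correction, 0.0955 with no filter, and 0.12 to 0.217 without either library of WT before adhesion, either of E6 before adhesion or replicate 1 of E6 after adhesion, where the log2 FC ran from -0.37 to -0.60. Leaving out E6 after adhesion replicate 2 gave -0.72 (FDR 0.0359), the single alternative of those run in which Six4 was DE in the averaged comparison.

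Eya1 (chr1:14168954-14310235, minus strand), the coactivator, had 479 and 402 counts in WT before, 712 and 543 in WT after, 389 and 526 in E6 before and 426 and 399 in E6 after adhesion. One library stood above the rest, WT after adhesion replicate 1 at 50.5 CPM against 26.3 in replicate 2, and the other 6 lay between 23.8 and 29.6. The log2 FC of E6 against WT was -0.09 (SE 0.27, FDR 0.909) before and -0.63 (SE 0.27, FDR 0.17) after adhesion. The latter was -0.06 (FDR 0.696) without that library and -1.01 (FDR 2.02e-08) without replicate 2. Averaged, it was -0.36 (SE 0.19, FDR 0.224), and -0.07 (FDR 0.412) and -0.55 (FDR 3.75e-07) in these 2 fits.

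Hoxa3 (chr6:52169062-52213336, minus strand), a homeodomain factor needed for the thymic rudiment, had 100 and 105 counts in WT before, 185 and 209 in WT after, 146 and 163 in E6 before and 153 and 149 in E6 after adhesion. Both E6 libraries were above WT before adhesion and below WT after it. The log2 FC was 0.45 (SE 0.21, FDR 0.27) before and -0.36 (SE 0.20, FDR 0.274) after adhesion. The latter was -0.13 (FDR 0.563) without WT after adhesion replicate 1 and -0.51 (FDR 0.0133) without replicate 2. The value before adhesion stayed at 0.45 in these 2 fits, with FDR 0.023 and 0.0225, short of the fold limit. Hoxa4, Hoxa5 and Hoxa6 lie within the span annotated for Hoxa3 and had 17 to 192 counts. The antisense genes Hoxaas2 and Hoxaas3 also overlap Hoxa3 and are not among the genes listed. The strand setting of the counting, which bears on antisense reads, is not given in the sources used here.

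Trp63 (chr16:25683763-25892102, plus strand) had 59 and 54 counts in WT before, 65 and 60 in WT after, 64 and 78 in E6 before and 85 and 87 in E6 after adhesion. It was 2.90 to 4.61 CPM in WT and 4.18 to 5.20 CPM in E6. The averaged log2 FC was 0.33 (SE 0.18, FDR 0.238) and that after adhesion 0.47 (SE 0.25, FDR 0.255). Without WT after adhesion replicate 1 they were 0.52 (FDR 0.00793) and 0.85 (FDR 0.00682), and without replicate 2 they were 0.19 (FDR 0.302) and 0.18 (FDR 0.507). Gene counts do not separate the isoforms of p63 that start at different promoters.

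Tbx1 (chr16:18580979-18590671, minus strand), a T-box factor of the early pouch, and Pou2f3 (chr9:43123939-43210369, minus strand) had 0 counts in each of the 8 libraries. A count of 0 in the 131177032 counts of all libraries together allows up to 3 counts, or 0.0229 CPM, which is 0.0065 RPKM for Tbx1 and 0.00741 RPKM for Pou2f3. Such limits cover counting error only.

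**Figure D2:**
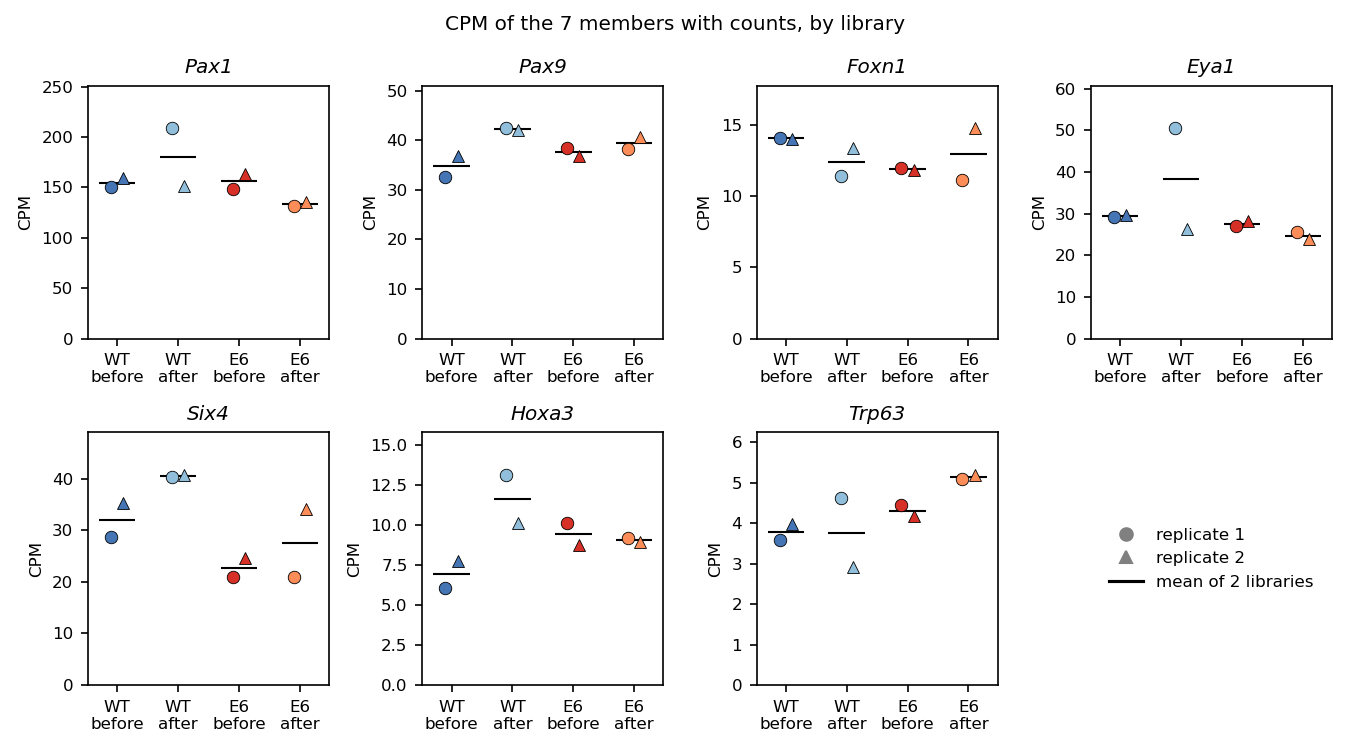
CPM of each member in each library, by condition (circles for replicate 1, triangles for replicate 2, bars for the mean of 2 libraries, axes from 0). Eya1 at 50.5 CPM and Pax1 at 209 CPM stand out in WT after adhesion replicate 1, and Six4 lies lower in E6 than in WT within each condition.

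The groups of 2 libraries did not overlap for 6 of the 7 members before adhesion, 3 with E6 higher and 3 with E6 lower, where 35.4% and 35.5% of tested genes were. After adhesion 6 of 7 did not overlap, 1 higher and 5 lower in E6, against 26.8% and 25.3% of genes. With all 4 libraries of each genotype, 0 of 7 members were free of overlap against 31.2% of genes.

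**Figure D3:**
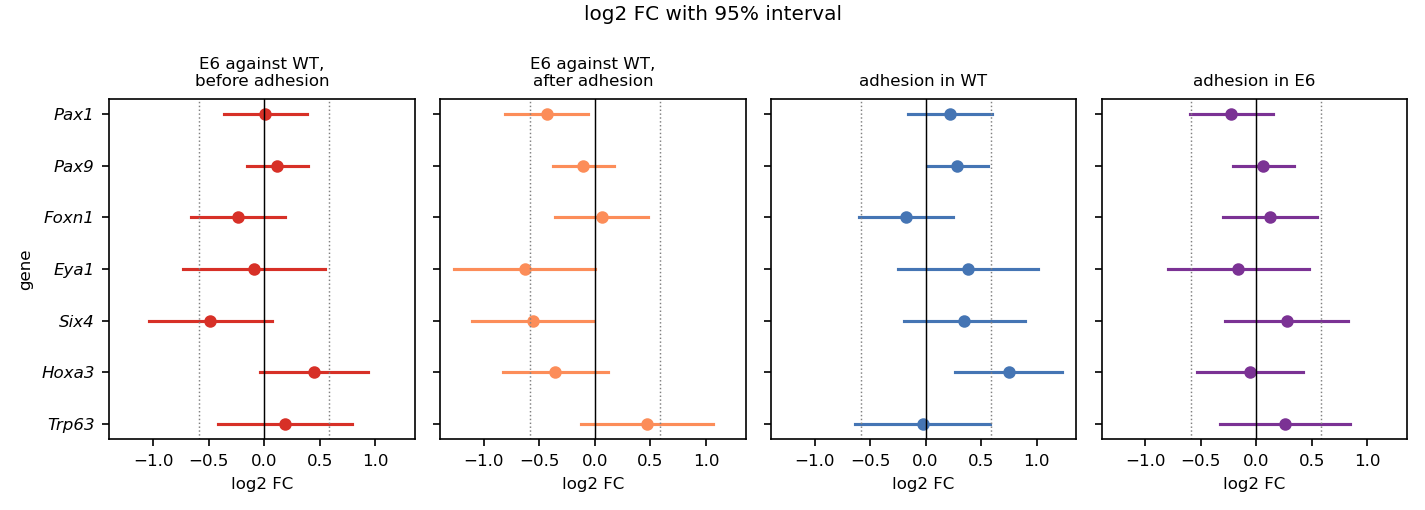
Log2 FC of the 7 members in 4 comparisons, with 95% intervals from the edgeR fit (dotted lines mark a 1.5-fold change). Most intervals cross 0, and that of Hoxa3 with adhesion in WT lies from 0.27 to 1.23.

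The second question was whether contact with thymocytes changed these factors. In WT, 0 of 7 members were DE after against before adhesion, as were 0.0% of all genes, although 873 genes (7.48%) had an unadjusted p under 0.05 in the edgeR fit and DESeq2 called 58 genes, none of them a member. Of 12 thymocyte markers tested, 0 were DE in WT either, with a median log2 FC of 4.99. The edgeR fit gave 11 of them an unadjusted p under 0.05. A count of 0 in WT therefore does not show that the members were unchanged. In E6, 0 of 7 members were DE against 2.0% of genes, and averaged over genotypes 0 of 7 against 1.89%. At an unadjusted p under 0.05 there were 2 members in WT, 0 in E6 against 6.97% of genes, and 1 averaged against 9.89%, and DESeq2 called 0 members.

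Hoxa3 had the largest adhesion effect of the members. In CPM it was 6.07 and 7.74 in WT before and 13.1 and 10.1 in WT after adhesion, with no overlap, whereas E6 gave 10.1 and 8.73 before and 9.16 and 8.90 after. The log2 FC in WT was 0.75 (SE 0.21, FDR 0.525), or 1.68-fold, and in E6 it was -0.06 (SE 0.20, FDR 1.00). The difference of the 2 effects was -0.81 (SE 0.29), which did not pass the correction over all genes (FDR 0.988). In WT the value was 0.56 (FDR 0.0808) without WT after adhesion replicate 1 and 0.92 (FDR 0.000168) without replicate 2, where 207 and 3550 genes were DE.

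Pax9 and Six4 were also higher in both WT libraries after than before adhesion, with log2 FC of 0.29 (SE 0.12, FDR 0.62) and 0.35 (SE 0.23, FDR 0.627), and Foxn1 was lower in both, at -0.18 (SE 0.18, FDR 0.688). Eya1 in WT gave 0.38 (SE 0.27, FDR 0.633), a value that was -0.16 (FDR 0.445) without replicate 1 of WT after adhesion and 0.77 (FDR 1.42e-06) without replicate 2. Counted together, 4 of 7 members did not overlap in WT, 3 higher and 1 lower after adhesion, against 16.6% and 14.5% of genes. In E6 it was 3 of 7, 1 higher and 2 lower, against 23.6% and 31.5%. The difference of adhesion effects called 0 of 7 members, as it did 0.0% of genes, with 1 member and 297 genes (2.54%) at an unadjusted p under 0.05, and DESeq2 called 2 genes and 0 members. With WT after adhesion replicate 2 left out, it called 3049 genes, and 3 members among them, Pax1 at -0.64 (FDR 1.15e-05), Eya1 at -0.92 (FDR 1.05e-05) and Hoxa3 at -0.97 (FDR 0.00179), and without replicate 1 it called 145 genes and 0 members. In those fits 1 library stands alone and is assumed to vary like the other conditions.

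**Figure D4:**
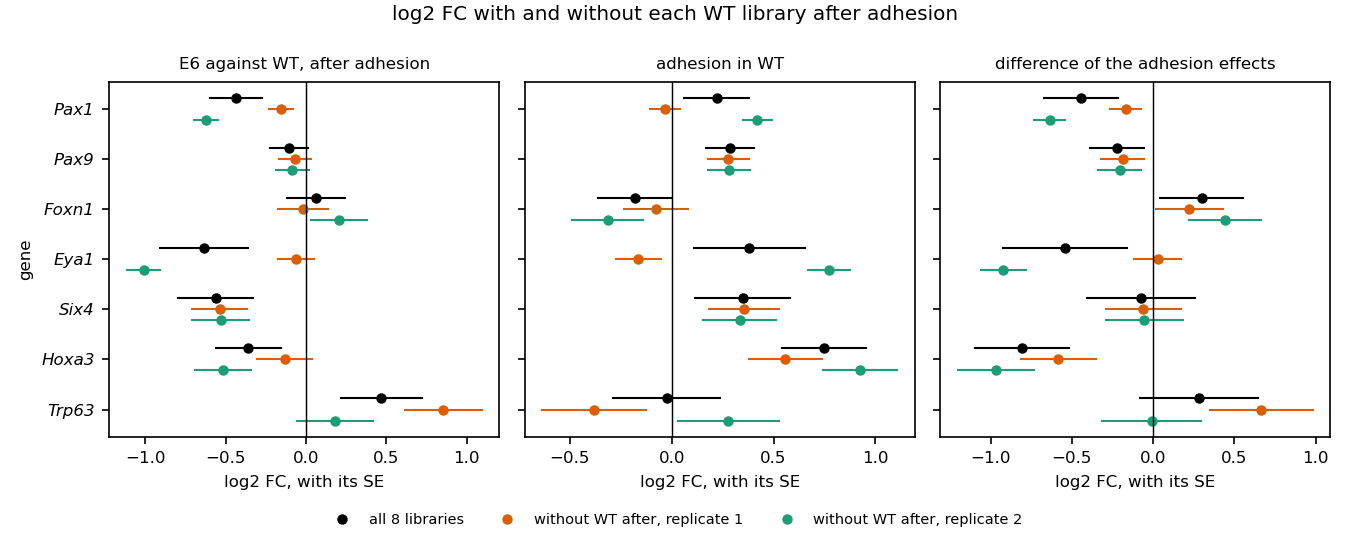
Log2 FC of each member (points, with SE as lines) from all 8 libraries and without each WT library after adhesion. Eya1 after adhesion runs from -0.06 without replicate 1 to -1.01 without replicate 2, while Six4 is at -0.54 and -0.53 in these 2 fits and ran from -0.25 to -0.95 when an E6 library after adhesion was left out.

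The partners and relatives of the members were described by counts within lists. Among the relatives of Six4 and Eya1 and their Dach partners, 6 of 10 were tested and 2 were DE in E6 against WT, in opposite directions, with a list median log2 FC of -0.15 against -0.01 over all tested genes. Eya2, another coactivator of this family, was higher in E6 in all libraries, at 67.6 ± 2.36 CPM against 40.7 ± 1.84 CPM in WT (SD, n = 4), a log2 FC of 0.73 (SE 0.08, FDR 0.00155). Eya4 was lower in E6 in all libraries, at 34.6 ± 1.93 CPM against 64.7 ± 10.05 CPM, a log2 FC of -0.90 (SE 0.13, FDR 0.00428). Both kept their call before and after adhesion taken alone. Six2, a homeodomain relative, was at 19.7 ± 6.14 RPKM against 2.83 RPKM for Six4. Dach1 and Dach2, the repressor partners, had at most 1 count in any library, and Six3 and Six6 had 0. Eya1, at 3.84 RPKM, was below Eya2 (18.3 ± 4.89 RPKM), Eya3 (10.9 ± 0.746 RPKM) and Eya4 (5.27 ± 1.85 RPKM) in mean level.

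Of the other Hox3 genes and the Hox cofactors, 10 of 11 were tested, and 0 were DE averaged over conditions (0 by DESeq2), against 11.3% of genes. The edgeR fit gave 5 an unadjusted p under 0.05, against 35.3% of genes, and the median log2 FC was -0.08. Meis2, the cofactor with the highest CPM, was at 165 ± 18.9 CPM in E6 and 247 ± 59.8 CPM in WT (log2 FC -0.58, FDR 0.0324, short of the fold limit). After adhesion alone, Meis2 was DE and lower in E6 (-0.86, FDR 0.0448). Hoxb3 and Hoxd3, the Hoxa3 paralogues, had 50 to 112 and 16 to 32 counts, or 0.934 ± 0.198 and 0.373 ± 0.0759 RPKM, against 1.54 RPKM for Hoxa3.

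Among 22 regulators of the pharyngeal pouches 10 were tested, and 7 had 0 counts everywhere, Gcm2 of the parathyroid domain and Shh among them. In E6 against WT 0 were DE (0 by DESeq2), against 11.3% of genes. At an unadjusted p under 0.05 the edgeR fit gave 2, against 35.3% of genes. Of 26 paralogues of the members 7 were tested, and 0 were DE (0 by DESeq2) against 11.3% of genes, with a median log2 FC of -0.21. The edgeR fit gave 3 of them an unadjusted p under 0.05, against 35.3% of genes. Of the Pax family beyond Pax1 and Pax9, Pax2 to Pax8 had at most 2 counts in any library. Trp53 was at 103 ± 9.30 CPM in E6 and 135 ± 6.54 CPM in WT (log2 FC -0.39, FDR 0.0155, short of the fold limit), and Trp73 had at most 1 count.

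Of 32 genes of stratified epithelium commonly placed downstream of p63, 28 were tested and 11 were DE averaged over conditions. In E6, 8 were higher and 3 lower, where 5.22% and 6.13% of all tested genes were, with a median log2 FC of 0.43 against -0.01 over all tested genes. With 1 library left out the count ran from 8 (without E6 after adhesion replicate 2) to 16 (without WT after adhesion replicate 2). The list was drawn up with earlier results of these data known. Higher in E6 were Cldn1, a tight-junction claudin, at 27.9 ± 7.48 CPM against 8.95 ± 1.43 CPM in WT (SD, n = 4, log2 FC 1.61, SE 0.11, FDR 0.000285), Fat2, an atypical cadherin, at 6 to 14 counts in WT and 18 to 38 in E6 (1.57, FDR 0.0121), and Trim29 at 0 to 6 counts in WT and 11 to 23 in E6 (2.93, FDR 0.0161). The basement membrane and hemidesmosome genes Lama3 (0.92, FDR 0.00107) and Itga6 (0.91, FDR 0.00122) rose, as did Fermt1 (1.14, FDR 0.00249) and Fgfr3 (1.21, FDR 0.0123). Lower in E6 were Grhl3 (-1.86, FDR 0.0116), Dsg3, a desmosomal cadherin (-1.18, FDR 0.00502), and Zfp750 (-1.09, FDR 0.00448), the first and last of which are transcription factors of late keratinocyte differentiation. Krt14 had 3767 to 11085 counts (264 RPKM) and its usual partner Krt5 only 3 to 21 (0.31 RPKM). With adhesion, 0 of the 28 were DE in WT, in E6 or averaged, against 0.0%, 2.0% and 1.89% of genes. The edgeR fit gave 2, 3 and 3 an unadjusted p under 0.05, against 7.48%, 6.97% and 9.89%.

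Of 12 genes placed downstream of Foxn1 in thymic epithelium, 5 were tested, 4 with a negative and 1 with a positive log2 FC. Their median was -0.48 against -0.01 over all tested genes. In the edgeR fit 3 had an unadjusted p under 0.05, against 35.3% of genes, and 1 was DE, against 11.3%. The single DE gene was Kitl, the ligand of Kit on early thymocytes. Kitl had 154, 119, 100 and 167 counts in WT and 29, 45, 36 and 33 in E6, so that no library overlapped, and its log2 FC was -1.95 (SE 0.14, FDR 0.000425). Foxn1 itself had a log2 FC of -0.09 (SE 0.13) in the same comparison, with a 95% interval that allows at most 1.31-fold. Before adhesion alone its interval allows at most 1.58-fold. Any part of Foxn1 in the Kitl difference was not tested. Ctsl, a cathepsin of cortical epithelium, had the highest CPM of the list and its single positive log2 FC, at 502 ± 30.6 CPM in E6 and 398 ± 38.7 CPM in WT (log2 FC 0.33, FDR 0.053). Psmb11 had 0 counts, the Notch ligand Dll4 at most 3, Prss16 40 to 121 and the chemokine Ccl25 23 to 37.

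Of 22 genes of tuft cells, the type that Pou2f3 specifies, 8 were tested, and 5 had 0 counts in all 8 libraries, among them Trpm5, Il25 and Chat. Averaged over conditions 1 of the 8 tested was DE, or 12.5% against 11.3% of all tested genes. It was Ptgs1 (log2 FC -1.20, SE 0.10, FDR 0.000579), a cyclooxygenase that many cells express. Plcb2, with 0 counts in all 4 libraries before adhesion, had 3 and 3 in WT and 40 and 28 in E6 after it, and was DE with adhesion in E6 (FDR 0.0234). It is also expressed by blood cells, and the thymocyte markers summed to 87.5 to 109 CPM in those E6 libraries. Their part in it was not tested.

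Of 20 further epithelial transcription factors 12 were tested and 4 were DE averaged over conditions, where 11.3% of all tested genes were. Relb (1.28, FDR 0.0155) and Grhl1 (1.19, FDR 0.0034) were higher and Klf4 (-0.86, FDR 0.000981) and Foxa2 (-0.67, FDR 0.0289) lower in E6. Relb, the NF-kB subunit needed for mTEC development, had 43, 50, 83 and 266 counts in WT and 140, 134, 347 and 349 in E6 and was also DE with adhesion averaged over genotypes (1.45, FDR 0.042). Of 6 factors of mesenchymal transition 4 were tested and 0 were DE in E6 against WT (0 by DESeq2), against 11.3% of genes, with a median of -0.71. The edgeR fit gave 1 an unadjusted p under 0.05, against 35.3% of genes. Zeb1, which thymocytes also express, was DE with adhesion in E6 (2.36, FDR 0.0428), from 4 and 13 to 44 and 44 counts.

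**Figure D5:**
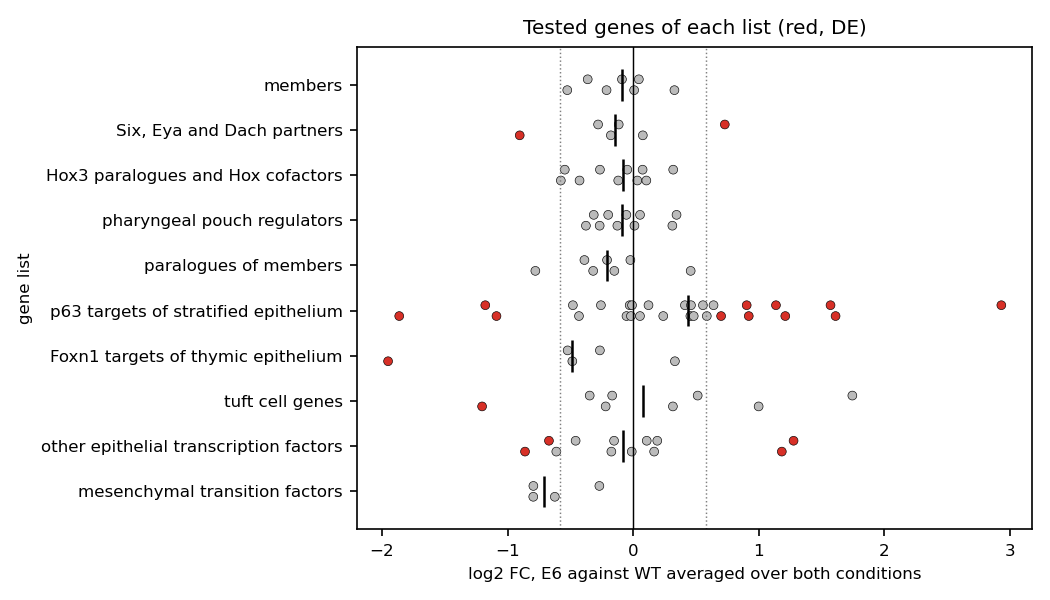
Log2 FC of E6 against WT, averaged over both conditions, for the tested genes of each list (red for DE, grey for the rest, black bars for list medians, dotted lines at a 1.5-fold change). The 7 members lie between -0.52 and 0.33 with none in red, and 11 genes downstream of p63 are in red.

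The gene whose log2 CPM followed each member most closely over the 8 libraries, among 10292 genes, was Flcn for Foxn1 (r = 0.911), Xist for Trp63 (0.942), Eif1ax for Pax1 (0.987), Wee1 for Pax9 (0.923), Phyh for Six4 (0.95), Ebag9 for Eya1 (0.997) and Slc44a3 for Hoxa3 (0.956). These are Pearson correlations given as a description. The 8 points share conditions, depth and GC slope, and Eya1 and Pax1 have their highest value in the library that stood apart on GC.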

How the data were processed

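The libraries were prepared from total RNA with a stranded Illumina kit and sequenced in pairs on an Illumina instrument. Per the labels and the study's methods, the authors aligned reads to mm10 with STAR 2.5.0a and deposited, for each library, the HTSeq count of reads per gene without normalization. The annotation and the strand setting are not given in the sources used here. Rows that name no gene held 21.2% to 33.3% of a library and were left out. In E6 before adhesion replicate 1, 18 symbols turned into dates were restored from the gene order. Titles and source names were followed for E6 before adhesion, although a protocol field there speaks of co-culture.

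Low counts were removed with filterByExpr, grouped by the 4 conditions, and the rest scaled by TMM (factors 0.938 to 1.03) and fitted with 1 mean per condition over 8 libraries by edgeR 4.0.16 (R 4.3.3, quasi-likelihood). The 7 contrasts used Benjamini-Hochberg FDR over 11672 genes. SE is the log2 FC divided by the square root of F. Exonic length, GC and positions came from GENCODE vM21 (GRCm38), in which 22740 symbols matched directly, 915 by an older symbol and 397 not at all. A floor of 3 counts is 0.149 to 0.222 CPM per library, for counting error only. No source says that replicates were independent cultures, so p-values measure the spread between these libraries. By the labels, culture time differed between the replicates (12 h and 24 h) in every condition but WT before adhesion. The spread behind the p-values takes in that difference. Both WT libraries before adhesion were cultured for 12 h, so comparisons that use this condition also differ in culture time. The part of culture time in the spread or in the log2 FC was not tested.

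Alternatives were RLE size factors, DESeq2 1.42.0, no filter, a replicate block, no fold limit, the 4 libraries compared alone and each library left out, and, chosen after seeing the data, a GC correction (lowess span 0.3) with and without the block. Members and lists were chosen with earlier results of these data known. Named from each list were its DE genes, at most 3 per direction by log2 FC, and the gene of highest CPM; Itga6, Lama3, Fermt1, Fgfr3 and genes given with counts only were added after their values were seen. Some genes that this rule names are not reported here. The fit was also run on simulated data, in which all libraries shared the same spread per gene and none stood apart on GC. That run does not cover a library such as WT after adhesion replicate 1.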

Additional observations from a re-analysis of the deposited data

How the results depend on the processing

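In all 7 comparisons the count of DE members stayed at 0 under RLE size factors, DESeq2, no filter, no fold limit, the replicate block and the GC correction (the last chosen after seeing the data), and in the 4 comparisons between 2 conditions also with the 4 libraries compared alone. Deviations of same-numbered libraries correlated at -0.08 to 0.22 over 9768 genes. Culture times differ among libraries of the same number, so these values do not settle whether replicate numbers pair the libraries. The replicate block gave 383 DE genes for E6 against WT before adhesion, 132 for adhesion in E6 and 139 for adhesion averaged (585, 234 and 221 without it). The GC correction gave 906 before adhesion, no fold limit 2444 averaged, and DESeq2 58 for adhesion in WT and 2 for the difference of adhesion effects. The 4 libraries alone gave 1457 for E6 against WT before adhesion, 0 after it and 537 for adhesion in E6. Without the fold limit, 2 Hox3 and cofactor genes, 3 paralogues and 2 genes downstream of Foxn1 passed. The cause was not tested.

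With each library left out in turn, DE members ranged from 0 to 1 for E6 against WT averaged (1 without E6 after adhesion replicate 2), 0 to 2 after adhesion, 0 to 2 for adhesion in WT and 0 to 3 for the difference, the highest without WT after adhesion replicate 2. DE genes ranged from 671 to 2557 averaged, 37 to 1512 before and 27 to 4500 after adhesion, 0 to 3550 for adhesion in WT, 0 to 643 in E6, 39 to 1341 averaged and 0 to 3049 for the difference. Lists ranged from 0 to 1 for Hox3 genes and cofactors, 1 to 2 for genes downstream of Foxn1, 1 to 2 for tuft cell genes, 8 to 16 for genes downstream of p63, 2 to 5 for other epithelial factors and 0 to 3 for mesenchymal factors.

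Of 322 log2 FC values of members under these other settings 308 kept their sign and 14 reversed, and of 392 with a library left out 31 reversed. With the GC correction, alone and with the replicate block, Hoxa3 averaged was -0.030 and -0.028, Pax1 before adhesion -0.042 and -0.037, Foxn1 after adhesion -0.11 and -0.11, Foxn1 with adhesion averaged 0.064 and 0.063 and Pax1 with adhesion averaged 0.13 and 0.11. The latter was 0.0044 with RLE, 0.0021 with DESeq2 and 0.00084 with no filter. The difference for Six4 was 0.016 with the GC correction. With a library left out, E6 against WT averaged ran from -0.20 to 0.0088 for Foxn1, -0.033 to 0.054 for Pax9 and -0.038 to 0.16 for Hoxa3, Pax1 before adhesion from -0.057 to 0.079 and Foxn1 after adhesion from -0.16 to 0.25. Adhesion in WT ran from -0.38 to 0.28 for Trp63, -0.031 to 0.42 for Pax1 and -0.16 to 0.77 for Eya1. Adhesion in E6 ran from -0.10 to 0.31 for Foxn1, -0.12 to 0.58 for Six4 and -0.17 to 0.044 for Hoxa3. Averaged, it ran from -0.14 to 0.063 for Foxn1, -0.047 to 0.27 for Trp63, -0.12 to 0.10 for Pax1 and -0.15 to 0.31 for Eya1. The difference ran from -0.0093 to 0.66 for Trp63, -0.47 to 0.23 for Six4 and -0.92 to 0.028 for Eya1. For Tbx1 and Pou2f3, a count of 0 allows up to 0.149 to 0.222 CPM by library and 0.0229 CPM over all libraries together, counting error only. The intervals of the tested members rest on 2 libraries per condition and on a spread per gene estimated from all 8 libraries. Between replicates, counts differed by a chi-square per degree of freedom of 138 in WT after adhesion. It was 3.41 in WT before, 4.56 in E6 before and 8.21 in E6 after adhesion. The spread within WT after adhesion enters the intervals of all comparisons, those before adhesion too.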

Other observations

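Hes1, a Notch target among the pouch regulators, was chosen after its values were seen. It had 503 and 474 counts in WT before, 828 and 4038 in WT after, 540 and 588 in E6 before and 893 and 2867 in E6 after adhesion. Replicate 2 was the higher library after adhesion in both genotypes, and the labels give a different culture time to these 2 libraries, 24 h in WT and 12 h in E6. Tbx15 and Tbx18, T-box genes with no assigned role here, had 721 to 1191 and 310 to 548 counts, whereas Tbx1 had 0.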
